A study of Mus musculus with 36 samples.

Results

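The libraries described here are RiboTag RNA from mouse spinal cord at postnatal day 10 (P10) and postnatal day 0.5 (P0.5), 3 libraries per age, or 6 of the 36 libraries of the series. They were chosen by the age, tissue and fraction in their labels, and no measured value was used. All 6 come from mice labelled ChAT-Cre;Ribo-tag and the sequenced fraction is RNA purified by the HA tag. In such mice Cre acts in cells that use or have used the promoter of Chat, the enzyme that makes acetylcholine, and turns on an HA-tagged ribosomal protein Rpl22, so that ribosome-bound RNA of those cells can be pulled down. Set beside them are the Cre-positive spinal cord libraries of embryos at E15.5 and of adult mice of 2 months, and the Cre-positive libraries of synapse-enriched diaphragm at P10 and P0.5, with 3 libraries in each group and the same genotype and fraction. No Cre-negative spinal cord was analysed here, so RNA that comes down without the tag was not measured in this tissue. The labels do not say whether the 3 libraries of an age are separate animals, so p-values measure only the spread between these libraries, which may be technical.

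Spinal motor neurons are large cholinergic cells that drive skeletal muscle. In rodents the first postnatal days are when supernumerary inputs to muscle fibres are withdrawn, when limbs begin to bear weight, when inhibitory transmission by glycine takes its adult form, and when oligodendrocytes wrap spinal axons in myelin. Motor neurons pass in that time from a state of axon growth to one built for fast and sustained firing, with thick neurofilament-filled axons.

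Levels are in CPM, read counts scaled to the total of the library. The 6 libraries held 65.3 to 67.8 M reads at P10 and 69.9 to 71.8 M at P0.5, so that 3 reads correspond to at most 0.0459 CPM. In each age, a mixture of replicates 1 and 2 came near to replicate 3, with weights of 0.495 and 0.501 at P10 and of 0.554 and 0.444 at P0.5. The distance of replicate 3 from that mixture was 1.83 times the counting error at P10, while the outer pair stood 7.05 times apart, and at P0.5 the values were 2.44 and 6.78. A library near a mixture of the other 2 may add little spread of its own, so standard errors and p-values from all libraries may be too small. For this reason results are also given without the intermediate library of each age for some genes and lists whose calls changed. Other list counts are given for all libraries only, and many of them were lower without the intermediate libraries.

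Motor neuron markers were present at both ages. The 7 markers Chat, Slc18a3, Slc5a7, Isl1, Mnx1, Prph and Ache summed to 1767 to 1908 CPM at P10 and 1615 to 1818 CPM at P0.5. Markers of other cells were present as well, and several differed between the ages. The 6 oligodendrocyte markers, Mbp and Mobp among them, summed to 15228 to 20569 CPM at P10 against 783 to 856 CPM at P0.5. Astrocyte markers summed to 390.3 to 409 CPM at P10 against 223 to 233 CPM at P0.5, but of these 6 markers 3 rose, 2 fell and 1 was not called. A longer list of 32 astrocyte genes held a smaller share of all CPM at P10, 0.725% against 0.989% at P0.5. Microglial markers, at 33.2 to 36.1 CPM at P10 against 31.2 to 43.8 CPM at P0.5, and inhibitory neuron markers, at 45.3 to 53 CPM at P10 against 48.9 to 50.2 CPM at P0.5, overlapped between the ages. Peripheral glia markers summed to 271 to 655 CPM at P10 against 67.7 to 108 CPM at P0.5, and sensory neuron markers to 0.949 to 36.5 CPM at P10 against 0.929 to 2.01 CPM at P0.5, with P10 libraries that differed widely. Erythroid markers summed to 2415 to 3295 CPM at P10 against 1751 to 1845 CPM at P0.5. No marker of the 13 cell types checked was at 0 in all 6 libraries. In such bulk RNA, fewer cells of a type and less RNA per cell cannot be told apart, and the part of the changing cell mixture in the differences below was not tested.

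The P0.5 libraries also carried Hox genes that were near 0 at the other ages. Hox genes encode homeodomain factors whose combination marks the level along the body axis, and paralog groups 10 and 11 belong to the lumbar and sacral cord. Hoxc10 was at 0.122, 0.295 and 0.196 CPM at P10 and at 39.1, 38 and 39.9 CPM at P0.5. Hoxd10 had no read in any P10 library and 19, 18.3 and 21.9 CPM at P0.5. The P0.5 mean was at least 430-fold higher than the floor of 3 reads in a P10 library. Neither gene was above 1 CPM at E15.5 or in adults. The 4 tested genes of groups 10 and 11 summed to 1.38 ± 0.115 CPM at E15.5, 78.1 ± 4.79 CPM at P0.5, 0.571 ± 0.0839 CPM at P10 and 1.13 ± 0.0683 CPM in adults (SD, n = 3 each). Genes of group 9 were lower at P10 too, with Hoxd9 at a mean of 2.72 CPM at P10 against 21 CPM at P0.5. All 8 tested genes of groups 9 to 11 fell, against 43.5% of all genes tested, and Hoxc9 lost its call without the intermediate libraries. Genes of paralog groups 1 to 8 summed to 421 to 479 CPM at P10 against 444 to 513 CPM at P0.5. Of these 21 tested genes 7 rose, 7 fell and 7 were not called. The labels do not give the level of the cord, and the part of this difference in the comparison of the ages was not tested.

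**Figure D1:**
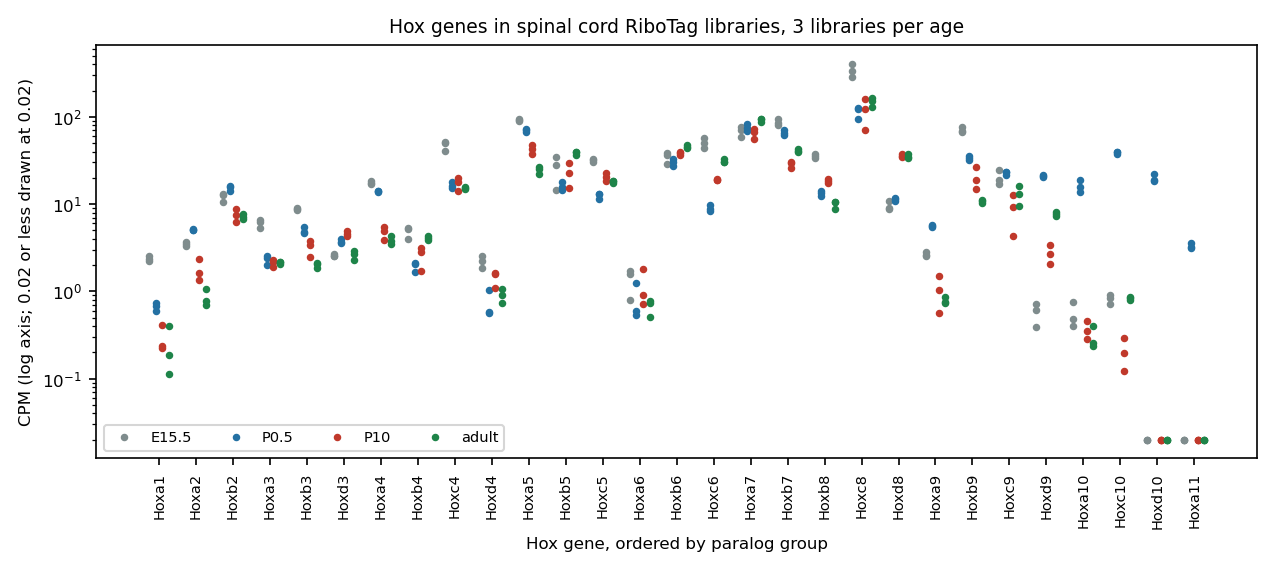
CPM (log axis) of the 29 Hox genes tested, in the order of their paralog group, with 1 point per spinal cord library and colours for the 4 ages. Hoxa10, Hoxc10, Hoxd10 and Hoxa11 stand at P0.5 above every library of the other ages, while most genes of groups 1 to 8 differ less between P10 and P0.5.

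P10 and P0.5 libraries differed in most genes. Of 13373 genes tested with limma on log2(CPM + 1), 10526 (78.7%) were called at an adjusted p under 0.05, of which 4706 (35.2% of those tested) rose and 5820 (43.5%) fell at P10. The excess of falls depended on the scaling, with 5314 higher and 5310 lower at P10 with size factors (RLE), 5314 and 5303 with TMM, and 5405 and 5288 with quantile normalization. The 3 P10 libraries did not overlap the 3 P0.5 libraries for 10857 genes (81.2%). With so many calls the size of a difference says more than its p-value, and 1151 genes (8.61%) rose and 1768 (13.2%) fell by a log2 difference of at least 1, that is about 2-fold. The median over all genes was -0.08. Counts over lists of genes below stand against these shares. Log2 differences below are P10 minus P0.5 on the log2(CPM + 1) scale with their standard error, and adjusted p-values are limma's over all 13373 genes.

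P10 stood less apart from the other spinal ages than P0.5 did. In 1013 genes (7.57%) all P10 libraries were above every library of the other 3 ages, and in 748 (5.59%) below. For P0.5 the numbers were 2518 above and 2369 below. Levels at E15.5 or in adults are given beside some of the genes that were high or low at 1 age alone.

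**Figure D2:**
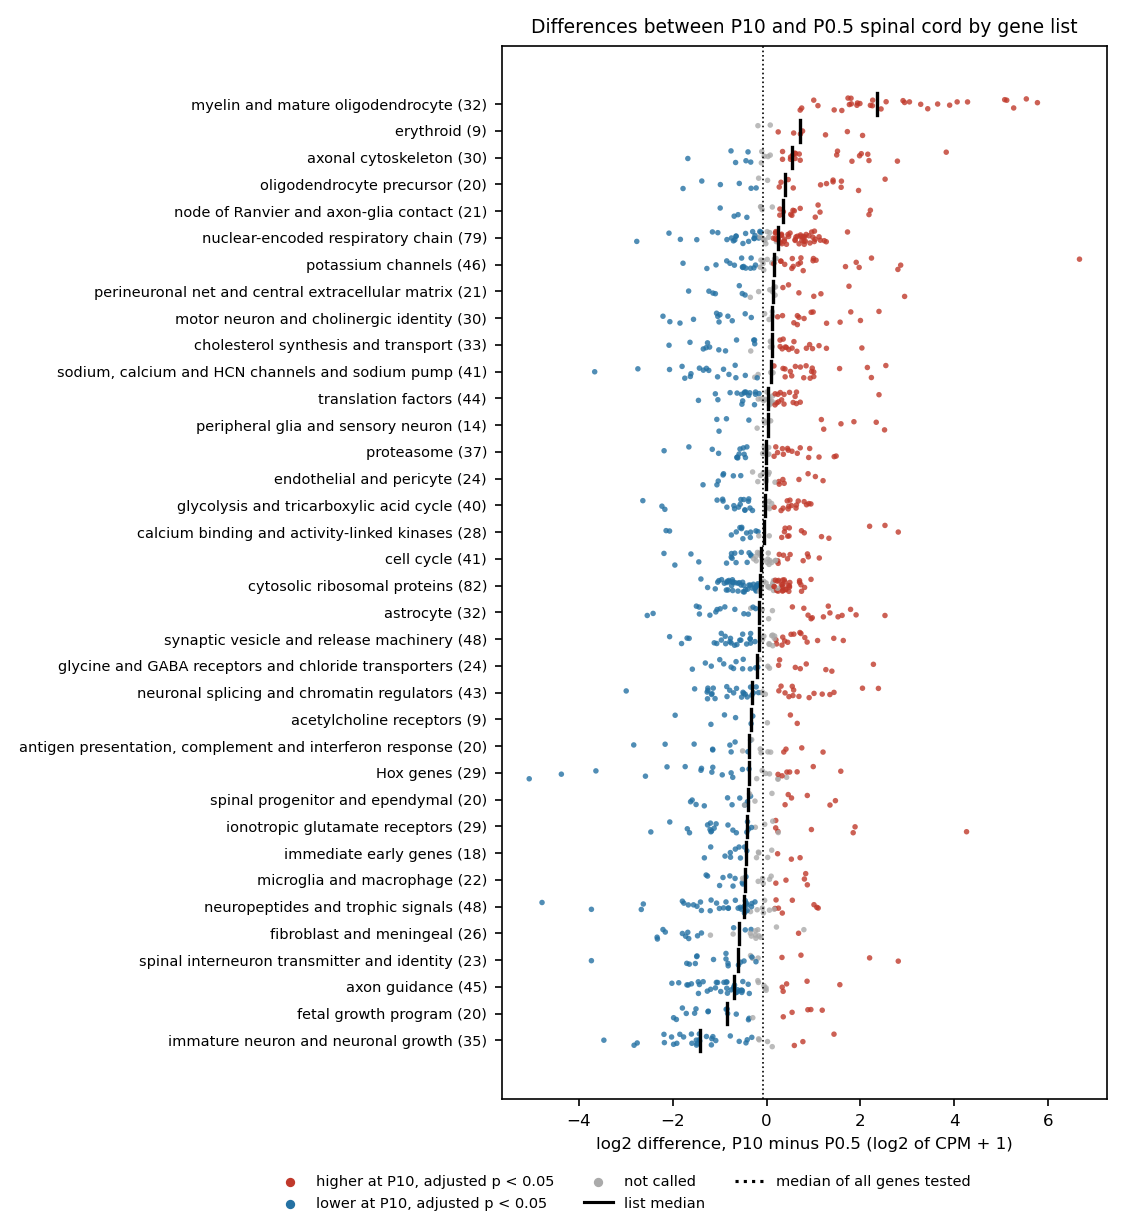
Each point is a gene of the list named at the left (number of genes tested in brackets), placed by its log2 difference between P10 and P0.5, and black bars are list medians. The myelin list lies wholly above 0 with a median of 2.35, and the list of immature neuron and growth genes has the lowest median, -1.42, against -0.08 for all genes tested.

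Cholinergic genes did not move together. Chat, the enzyme of acetylcholine synthesis, had 73.8, 56.9 and 63.9 CPM at P10 and 12.8, 10.4 and 11.3 CPM at P0.5. All P10 libraries lay above all P0.5 libraries, and Chat rose by 2.40 ± 0.09 (adjusted p = 2.38e-12) to a level close to the adult 64.6 ± 3.09 CPM. Slc5a7, which takes choline back up, rose as well, with 67.9, 60.1 and 65.6 CPM at P10 and 38.1, 31.2 and 41.3 CPM at P0.5 (log2 difference 0.80 ± 0.08). Slc18a3, the transporter that loads acetylcholine into vesicles and is encoded within the Chat locus, fell instead, to 162, 144 and 151 CPM at P10, against 276, 235 and 249 CPM at P0.5 (log2 difference -0.73 ± 0.08). Chat and Slc18a3 thus changed in opposite directions although they share a locus.

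The transcription factor genes of motor neuron fate described here were lower at P10. Isl1, which starts the programme, fell to 21.1, 22 and 22 CPM at P10, against 42.7, 44.5 and 47.3 CPM at P0.5, and E15.5 had 140.2 ± 19.4 CPM. Mnx1 had 4.97, 5.02 and 5.7 CPM at P10 and 7.32, 5.85 and 7.29 CPM at P0.5, a log2 difference of -0.32 ± 0.10 that was called (adjusted p = 0.00995) but not without the intermediate libraries (adjusted p = 0.0696) or with size factors. Foxp1 and Aldh1a2, known in limb-innervating motor columns, fell (log2 difference -1.84 and -2.21), with 6.46, 8.09 and 7.07 CPM for Foxp1 at P10 and 29.2, 27 and 28.8 CPM at P0.5. These fell beside the Hox genes of groups 10 and 11 described above, whose part in them was not tested.

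The trophic factor receptor genes Gfra1, Ret and Ngfr fell, and Mmp9 rose. Gfra1, the GDNF co-receptor, had 32, 26.9 and 28.6 CPM at P10 and 94.4, 80.2 and 88.6 CPM at P0.5, and Ret, its signalling partner, 59, 50.1 and 54.8 CPM at P10 and 126, 102 and 118 CPM at P0.5 (log2 differences -1.56 ± 0.08 and -1.06 ± 0.08). Ngfr, the low-affinity neurotrophin receptor that embryonic motor neurons carry, fell to 0.627, 2.57 and 2.19 CPM at P10, against 72.6, 71.4 and 71.2 CPM at P0.5 (-4.78 ± 0.23). Mmp9, a metalloproteinase known in fast motor neurons, rose to 21.9, 16 and 17.6 CPM at P10, against 4.82, 4.14 and 4.82 CPM at P0.5. Its adult level was 20.4 ± 0.604 CPM. Of the 30 tested genes on the list of motor neuron and cholinergic identity, 14 rose and 12 fell, with a median of 0.12.

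Genes of neuronal immaturity mostly fell. Of 35 tested, 28 fell, 23 of them by at least 1 on the log2 scale, and 3 rose, with a median of -1.42. Together the list took 1.85% ± 0.0322 of all CPM at P10 and 4.3% ± 0.161 at P0.5 (SD, n = 3 each). Dcx, the microtubule protein of migrating neurons, was at 1.58, 1.64 and 1.67 CPM at P10 and at 27.7, 27.5 and 28.9 CPM at P0.5 (-3.46 ± 0.07). The ages were far apart beside the spread within each, and adults had 0.106 ± 0.0226 CPM. Crmp1 and Dpysl5, which relay guidance signals to the growth cone, fell (log2 difference -2.75 and -2.82). Stmn1, a tubulin-binding protein of growing axons, had 498, 575 and 529 CPM at P10 and 2285, 2527 and 2478 CPM at P0.5, and Marcksl1 fell (log2 difference -2.18). The 3 members that rose were Elavl2, Dpysl2 and Cntn2, by 1.44, 0.77 and 0.59.

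Axon guidance genes also mostly fell. Of 45 tested, 34 fell and 5 rose, with a median of -0.69. Plxna1, a semaphorin receptor, had 6.78, 6.76 and 6.26 CPM at P10 and 30.3, 24 and 26.3 CPM at P0.5. Nrp2, its co-receptor family member, had 15, 15.7 and 15.2 CPM at P10 and 52.9, 48.2 and 51.4 CPM at P0.5. Sema4d, a transmembrane semaphorin that oligodendrocytes also carry, rose to 36, 35.5 and 37.2 CPM at P10, against 13.5, 9.87 and 11.7 CPM at P0.5. Its P10 libraries lay above every P0.5 library, and adults had 14.2 ± 1.81 CPM.

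The axonal cytoskeleton changed in composition. Nefh, the heavy neurofilament subunit of large-calibre axons, had 1111, 1055 and 1081 CPM at P10 and 250.4, 225 and 251 CPM at P0.5, a rise of 2.16 ± 0.06 (adjusted p = 2.33e-13). Nefm and Nefl, the medium and light subunits, rose less, by 0.51 ± 0.06 and 0.51 ± 0.05. Ina, the alpha-internexin of developing neurons, fell to 261, 259 and 259.5 CPM at P10, against 445, 378 and 412 CPM at P0.5 (-0.66 ± 0.06). Among the microtubule proteins Mapt (tau) fell to 149, 145 and 151 CPM at P10, against 481, 481 and 467 CPM at P0.5, and the motor Kif5b rose to 105, 88 and 97.3 CPM at P10, against 22.8, 21.3 and 25.2 CPM at P0.5. The neuronal tubulin Tubb3 had 1798, 1720.1 and 1768 CPM at P10 and 1735, 1759 and 1713 CPM at P0.5, and was not called (log2 difference 0.02, 95% interval -0.09 to 0.14), while size factors made it a small rise of 0.12. Over the list, 19 of 30 genes rose and 6 fell.

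Glycine receptors, which carry much of the inhibition of motor neurons, exchanged subunits. Glra1, the adult alpha subunit, had 90.05, 82.1 and 88 CPM at P10 and 18.3, 15 and 18.2 CPM at P0.5 (2.28 ± 0.09, adjusted p = 3.05e-12). Glra2, the fetal alpha subunit, had 14.7, 20.4 and 17.1 CPM at P10 and 53.2, 51 and 56.5 CPM at P0.5 (-1.58 ± 0.10). Its E15.5 level was 111 ± 9.24 CPM and its adult level 0.998 ± 0.176 CPM, so P10 lay between P0.5 and adults. Glrb, the subunit that anchors the receptor, rose to 137, 126 and 134 CPM at P10, against 50.2, 44.1 and 55.6 CPM at P0.5, and the anchoring protein gephyrin (Gphn) fell to 50.7, 39.5 and 45.4 CPM at P10, against 106, 98.7 and 105 CPM at P0.5. Slc12a5 (KCC2), the chloride extruder on which inhibition by glycine depends, had 83.2, 69.6 and 77.1 CPM at P10 and 76.2, 68.5 and 74.7 CPM at P0.5. The ages overlapped and it was not called (0.06, 95% interval -0.08 to 0.21), while scaling with size factors made it a small rise of 0.16. Slc12a2 (NKCC1), which loads chloride, rose to 6.34, 7.48 and 6.74 CPM at P10, against 2.37, 1.91 and 2.54 CPM at P0.5.

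Genes of glutamate receptors and their scaffolds mostly fell, and 3 rose by at least 1 on the log2 scale. Of 29 tested, 18 fell and 7 rose, or 4 without the intermediate libraries. Grin3b, a glycine-gated NMDA receptor subunit known in motor neurons, had 31.4, 20.6 and 28.8 CPM at P10 and 0.443, 0.599 and 0.284 CPM at P0.5 (4.26 ± 0.13, adjusted p = 4.46e-13). Adults had 44.8 ± 1.88 CPM. Gria3, an AMPA receptor subunit, rose to 37, 33.5 and 34.3 CPM at P10, against 9.49, 7.83 and 9.78 CPM at P0.5, and the scaffold Dlg4 (PSD-95) to 29.2, 24.6 and 26.9 CPM at P10, against 6.75, 5.88 and 7.01 CPM at P0.5. Grin2a and Grin2b, the NMDA receptor subunits often described as exchanging in the forebrain, both fell here (log2 difference -1.18 ± 0.08 and -0.82 ± 0.08). Shank1 and Shank3, scaffolds of the postsynaptic density, fell (log2 difference -1.69 and -2.06). Shank3 had 1.21, 1.11 and 1.28 CPM at P10 and 8.64, 7.8 and 8.09 CPM at P0.5, but only 1.36 ± 0.0921 CPM at E15.5, so that its level was high at P0.5 alone.

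Several potassium channel genes of fast firing rose. Kcng4, a silent potassium channel subunit that modifies delayed rectifiers, had 169.6, 116 and 146 CPM at P10 and 0.486, 0.404 and 0.341 CPM at P0.5 (6.67 ± 0.11, adjusted p = 1.75e-15), the second-largest rise among the genes described. It stayed high in adults, at 211 ± 22 CPM. Kcna1 and Kcna2, the potassium channels next to the node of Ranvier, rose by 2.86 ± 0.10 and 2.24 ± 0.09. Kcna1 was at 136, 100.4 and 119.9 CPM at P10 and 16.8, 14 and 15.55 CPM at P0.5. Kcnd3, an A-type channel, fell to 2.56, 2.97 and 2.55 CPM at P10, against 12.5, 10.7 and 11.8 CPM at P0.5. Over the potassium channel list 21 of 46 genes rose and 15 fell, or 9 fell without the intermediate libraries.

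Sodium channel subunits split in the same way. Scn1a and Scn8a, the alpha subunits of mature spinal neurons, rose to 23.8, 19.3 and 21.3 CPM at P10 for Scn1a, against 11.5, 8.67 and 10.5 CPM at P0.5, and 68.6, 60.2 and 64.3 CPM at P10 for Scn8a, against 36, 29.6 and 32.4 CPM at P0.5. Scn3a, the embryonic alpha subunit, fell (log2 difference -1.80 ± 0.09), and the beta subunit Scn3b fell to 5.16, 4.78 and 4.42 CPM at P10, against 77, 67.8 and 71.6 CPM at P0.5 (-3.66 ± 0.10). The beta subunits Scn2b and Scn4b rose by 2.54 ± 0.09 and 2.23 ± 0.11.

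**Figure D3:**
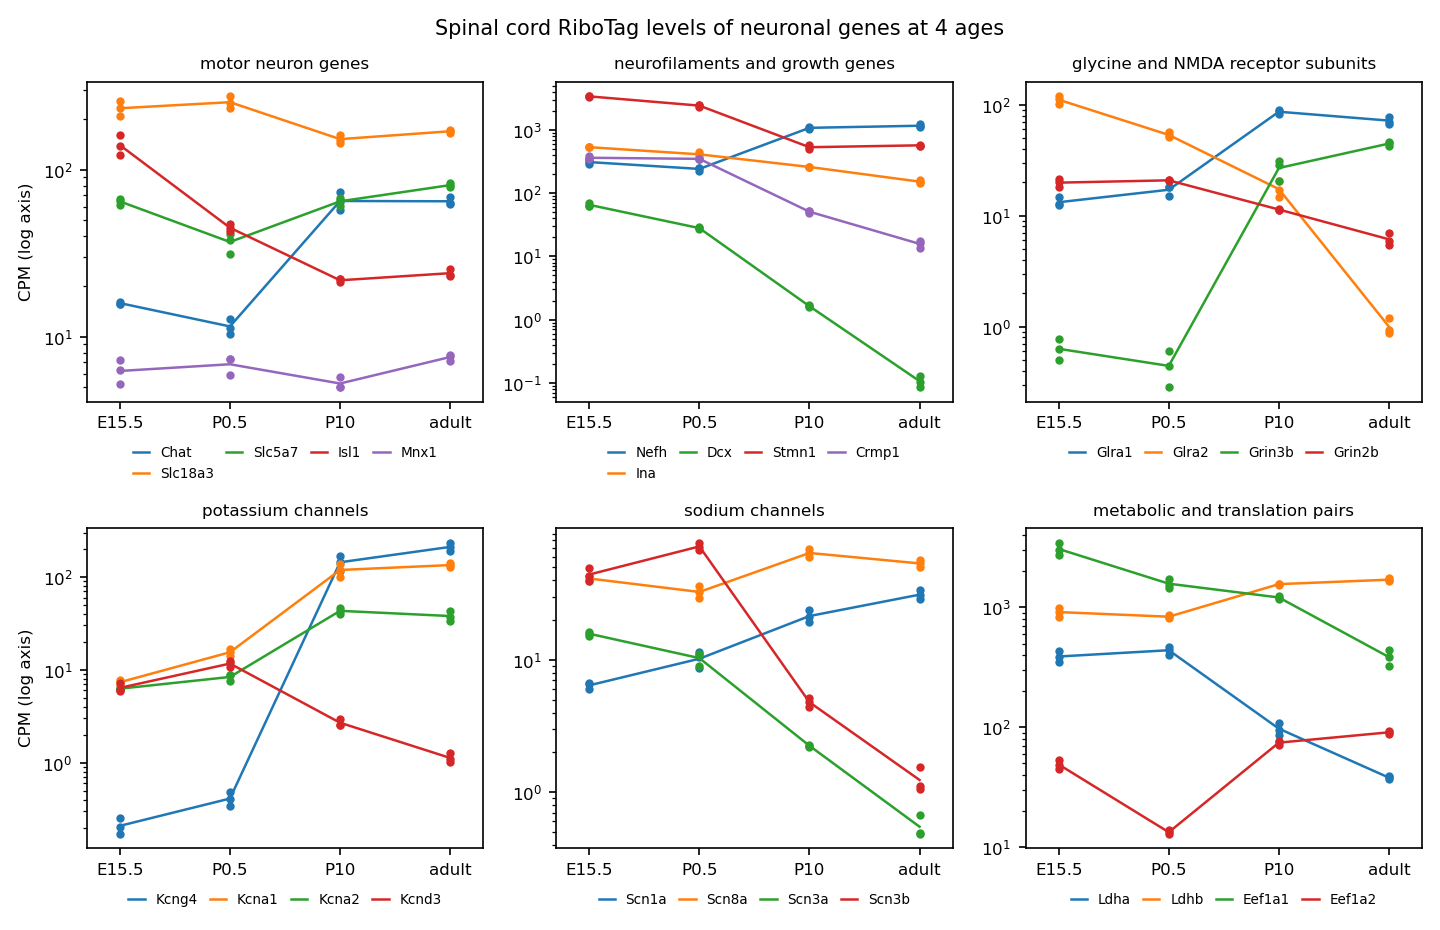
CPM (log axis) of selected neuronal genes at E15.5, P0.5, P10 and in adults, with 1 point per library and lines through the means of 3. Glra1 is higher and Glra2 lower at P10 than at P0.5, Kcng4 and Grin3b climb from below 1 CPM, and Scn3b and Dcx fall at P10 and again in adults.

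Acetylcholine receptor genes changed in both directions. Chrna4, an alpha subunit of neuronal nicotinic receptors, had 15.52, 17.2 and 15.6 CPM at P10 and 70.5, 59.7 and 64.6 CPM at P0.5 (-1.95 ± 0.08), and 6 of 9 tested genes fell, or 4 without the intermediate libraries, against 43.5% of all genes tested in the fit of all libraries. Chrm2, the muscarinic receptor known at the large cholinergic synapses on motor neurons, rose to 20.4, 17.4 and 19.8 CPM at P10, against 13, 9.88 and 12.9 CPM at P0.5. Of 18 immediate early genes, which report recent activity or stress, 10 fell and 3 rose. Egr1 fell to 2.77, 2.91 and 3.62 CPM at P10, against 10.5, 8.04 and 9.27 CPM at P0.5, and Junb rose to 4.94, 3.88 and 4.03 CPM at P10, against 2.46, 1.94 and 2.25 CPM at P0.5.

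Genes of transmitter release moved in both directions. 24 of 48 tested fell and 15 rose, shares near the 43.5% and 35.2% of all genes tested. Stx1a, a syntaxin of vesicle fusion, fell to 15.3, 16.9 and 16.7 CPM at P10, against 71.1, 72.1 and 70.5 CPM at P0.5, and Syt1, a calcium sensor of release, to 33.9, 26.8 and 31.5 CPM at P10, against 70.4, 59.7 and 65 CPM at P0.5. Syt2, the fast sensor of the neuromuscular junction, rose to 136, 119 and 131 CPM at P10, against 78.5, 66 and 74.1 CPM at P0.5, and Rph3a by 1.43 ± 0.07. Vamp2 fell (log2 difference -0.51 ± 0.05). Vamp1, the vesicle SNARE of motor terminals, had 475, 383 and 425 CPM at P10 and 398, 366 and 371 CPM at P0.5 and was not called (log2 difference 0.17, adjusted p = 0.0635), although size factor scaling, quantile normalization and the count tests called a rise. Sncg (gamma-synuclein) fell to 1657, 1653 and 1658 CPM at P10, against 5657, 6022 and 5758 CPM at P0.5.

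Calcium-binding protein genes changed in both directions. S100b had 1209, 1169 and 1201 CPM at P10 and 209, 205 and 206 CPM at P0.5 (2.52 ± 0.04), and is also an astrocyte and oligodendrocyte gene. Calb2 (calretinin) and Pvalb (parvalbumin) rose to 196, 159 and 183 CPM at P10 for Calb2, against 25.2, 26.3 and 22.5 CPM at P0.5, and 121, 171 and 144 CPM at P10 for Pvalb, against 34.6, 26.5 and 31.2 CPM at P0.5. Pcp4, a calmodulin regulator, fell to 511, 496 and 502 CPM at P10, against 1919, 2304 and 2120.2 CPM at P0.5, and Hpca (hippocalcin) to 90.2, 85.6 and 91.2 CPM at P10, against 398, 390.0 and 398 CPM at P0.5. Both Pcp4 and Hpca were lower at E15.5, at 381 ± 57.4 and 141 ± 4.88 CPM.

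Peptides and trophic signals mostly fell. Of 48 tested, 33 fell, 15 of them by at least 1 on the log2 scale, and 8 rose, or 5 without the intermediate libraries. Npy (neuropeptide Y) had 38.1, 47.9 and 44.1 CPM at P10 and 555, 622 and 581 CPM at P0.5 (-3.73 ± 0.08). Ntf3, the neurotrophin on which muscle sensory neurons depend, fell to 0.0918, 0.605 and 0.603 CPM at P10, against 8.22, 6.77 and 9.05 CPM at P0.5. Reg3b, a secreted lectin that embryonic motor neurons are known to make, had 0, 0 and 0.0754 CPM at P10 and 42.7, 41.8 and 46.9 CPM at P0.5 (-5.45 ± 0.09), the lowest log2 difference among the genes described. Crabp2, a carrier of retinoic acid, fell to 0.949, 3.57 and 1.33 CPM at P10, against 78.5, 93.8 and 83.7 CPM at P0.5. Nts (neurotensin) and Chgb, a granin of dense-core vesicles, rose by 1.10 ± 0.09 and 1.01 ± 0.06.

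Genes of spinal interneurons mostly fell. Tlx3, Lbx1 and Lmx1b, factors of dorsal excitatory and association neurons, fell (log2 difference -1.70, -1.49 and -1.52), and Lbx1 had 2.6, 2.23 and 2.22 CPM at P10 and 8.16, 8.24 and 8.74 CPM at P0.5. Slc32a1, the vesicular transporter of GABA and glycine, rose to 15.4, 16.1 and 16.8 CPM at P10, against 8.08, 9.85 and 10.03 CPM at P0.5. 16 of 23 genes of the interneuron list fell and 4 rose, or 13 and 4 without the intermediate libraries.

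Myelin genes had the highest median of the lists. All 32 listed genes were tested and rose, 30 of them by at least 1 on the log2 scale, with a median of 2.35, and 31 rose without the intermediate libraries. Their share of all CPM was 2.07% ± 0.280 at P10 and 0.151% ± 0.00277 at P0.5 (SD, n = 3 each). Mbp, the myelin basic protein, had 14490.0, 10216 and 12260.0 CPM at P10 and 651, 603 and 625 CPM at P0.5 (4.28 ± 0.23, adjusted p = 9.47e-08). Mobp, a basic protein of compact myelin, had 2402, 1572 and 1964 CPM at P10 and 36.5, 33.5 and 34.3 CPM at P0.5. P10 replicate 1 was the highest of its age for Mbp and Mobp, and replicate 2 the lowest. Mog, at the outer face of myelin, had 158, 162 and 155 CPM at P10 and 3.49, 3.4 and 3.89 CPM at P0.5, and Opalin, a late marker of oligodendrocytes, 55.4, 53.9 and 56.3 CPM at P10 and 0.114, 0.181 and 0.355 CPM at P0.5. Adult levels were below P10 for all of these, with 1551 ± 456 CPM for Mbp.

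Genes of earlier oligodendrocyte stages rose in part. Bcas1 and Gpr17, of premyelinating cells, had 101, 106 and 103 CPM at P10 for Bcas1, against 16.6, 17 and 17.8 CPM at P0.5, and 31.3, 32.2 and 30.4 CPM at P10 for Gpr17, against 7.71, 7.23 and 6.96 CPM at P0.5. Pdgfra, the growth factor receptor of dividing precursors, had 3.76, 3.51 and 3.68 CPM at P10 and 4.62, 4.71 and 5.22 CPM at P0.5. It fell (log2 difference -0.33 ± 0.08), a call lost without the intermediate libraries (adjusted p = 0.0774). Over the precursor list 12 of 20 genes rose and 6 fell, or 9 and 4 without the intermediate libraries.

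Where axon and myelin meet, 13 of 21 genes rose and 4 fell, or 11 and 4 without the intermediate libraries. Sptbn4, the spectrin of nodes and axon initial segments, rose to 21.3, 21.6 and 21.7 CPM at P10, against 4.13, 3.53 and 4.26 CPM at P0.5, and Nfasc (neurofascin) to 49.7, 46.2 and 49 CPM at P10, against 24.3, 20.2 and 21.8 CPM at P0.5. Cntn1, the axonal contactin of the paranode, fell to 59.5, 56.3 and 59.4 CPM at P10, against 119, 109.7 and 122 CPM at P0.5. In the extracellular matrix, Hapln2, a link protein of nodes, rose to 9.52, 9.21 and 9.27 CPM at P10, against 0.372, 0.446 and 0.227 CPM at P0.5, and Acan (aggrecan), of perineuronal nets, to 6.09, 3.9 and 5.34 CPM at P10, against 1.84, 1.73 and 1.55 CPM at P0.5. Ncan (neurocan) and Agrn (agrin), both abundant in young tissue, fell to 25.5, 25.2 and 25.1 CPM at P10 for Ncan, against 81.4, 83.2 and 81.1 CPM at P0.5, and 20.7, 20.7 and 20.4 CPM at P10 for Agrn, against 49.9, 43.7 and 46.4 CPM at P0.5.

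Several of the largest rises were in genes whose proteins bind actin or are myosins, and they were high at P10 alone. Gsn (gelsolin), which severs and caps actin filaments and is also made by oligodendrocytes, had 1839, 1943 and 1894 CPM at P10 and 8.86, 10.5 and 10.01 CPM at P0.5 (7.46 ± 0.30, adjusted p = 1.49e-08), a ratio of means of 193. It had 14.1 ± 1.71 CPM at E15.5 and 61.2 ± 30.3 CPM in adults. The 3 heavy chains of non-muscle myosin II behaved alike: Myh9 had 34.4, 36.2 and 36 CPM at P10 and 0.372, 0.376 and 0.412 CPM at P0.5, Myh10 318, 336 and 326 CPM at P10 and 9.78, 12.2 and 10.9 CPM at P0.5, and Myh14 109, 121 and 115 CPM at P10 and 3.22, 2.95 and 3.06 CPM at P0.5. Myo6, the myosin that walks to the pointed end of actin, had 130.2, 144 and 135 CPM at P10 and 1.64, 2.09 and 1.9 CPM at P0.5 (5.58 ± 0.34). P10 libraries of each of these genes lay above every library of the other ages.

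To see how far this reached, 73 tested genes of 11 actin and myosin families were counted, families chosen after these values had been seen. Of these, 43 rose, 29 of them by at least 1 on the log2 scale, 20 fell and 10 were not called, with a median of 0.73. In 27 of the 73, every P10 library was above all libraries of the other 3 ages. The 73 include Gsn, Myh9, Myh10, Myh14 and Myo6, which had prompted the count, so it is not separate support for them. Among all genes tested 35.2% rose, 8.61% by at least 1 on the log2 scale, and 43.5% fell. In 7.57% every P10 library was above the other ages. All 5 spectrins rose, Sptbn1 to 345, 311 and 333 CPM at P10, against 23.5, 20.2 and 23.3 CPM at P0.5, and Sptan1 to 295, 359 and 330.0 CPM at P10, against 52.9, 40.6 and 46.8 CPM at P0.5. Myo5a, a cargo motor of dendrites, rose by 3.59 ± 0.19, Lima1 by 4.25 ± 0.18, Limch1 by 4.58 ± 0.19 and Actn1, an actin crosslinker, by 3.46 ± 0.21. The actins themselves moved little: Actb fell (log2 difference -0.44 ± 0.08) and Actg1 rose by 0.43 ± 0.05. The abundant light chain Myl12b fell (log2 difference -0.30 ± 0.07), Myl6 rose by 0.89 ± 0.05, and Ezr (ezrin) and Ablim3 fell (log2 difference -1.96 ± 0.09 and -1.35 ± 0.08). In adults Myh9 was back at 1.32 ± 0.850 CPM. Myelin genes were also highest at P10. The part of oligodendrocyte RNA in these rises was not tested.

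**Figure D4:**
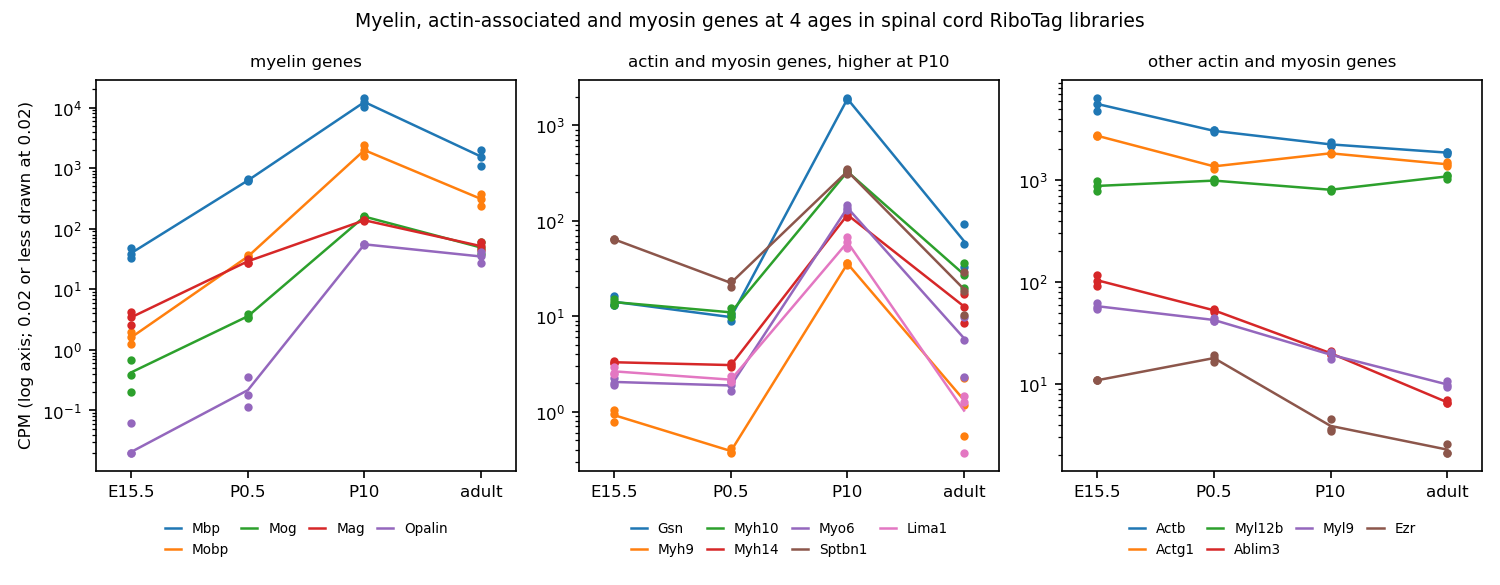
CPM (log axis) of myelin genes (left), of actin-associated and myosin genes that were higher at P10 (middle) and of other actin-associated genes (right) at 4 ages, with 1 point per library and lines through means of 3. The middle panel peaks at P10 with Gsn at a mean of 1892 CPM, while Actb and Myl12b in the right panel change little between P0.5 and P10.

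Nuclear-encoded genes of the respiratory chain mostly rose. The 79 genes held 18.1% ± 0.345 of all CPM at P10 and 14.4% ± 0.142 at P0.5. Of these 47 rose and 22 fell, or 39 and 17 without the intermediate libraries. Ndufc1 and Ndufb7, subunits of complex I, had 5118, 6028 and 5529.7 CPM at P10 for Ndufc1, against 1604, 1729 and 1701 CPM at P0.5, and 4634, 4782 and 4761 CPM at P10 for Ndufb7, against 2219, 2199 and 2107 CPM at P0.5. Cox6a1, the ubiquitous form of a cytochrome oxidase subunit, went the other way, with 2665, 2622 and 2694 CPM at P10 and 7462, 7606 and 7284 CPM at P0.5 (-1.49 ± 0.06). Sdhd, an anchor of succinate dehydrogenase, had 64.9, 49.5 and 52.1 CPM at P10 and 380.3, 381 and 378 CPM at P0.5. Both were high at P0.5 alone, with 1988 ± 141 and 141 ± 22.5 CPM at E15.5.

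The lactate dehydrogenase subunits parted. Ldha, of the muscle-type isozyme, had 87, 109.6 and 95.6 CPM at P10 and 472, 402 and 444 CPM at P0.5 (-2.17 ± 0.09), and Ldhb, of the heart-type isozyme, 1575, 1566 and 1551 CPM at P10 and 861, 822 and 827 CPM at P0.5 (0.90 ± 0.06). The same was seen for elongation factor 1A: Eef1a2, the form of mature neurons and muscle, rose to 75.5, 70.7 and 77.3 CPM at P10, against 12.9, 13.3 and 13.8 CPM at P0.5 (2.40 ± 0.07), and Eef1a1, the common form, fell (log2 difference -0.38 ± 0.11), a call not made without the intermediate libraries (adjusted p = 0.0513).

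Cholesterol genes, on which myelin growth draws, changed in both directions. 16 of 33 rose, 3 of them by at least 1 on the log2 scale, and 12 fell, 7 by as much. Among all genes tested 35.2% rose and 43.5% fell. The median of the list was 0.12, against -0.08 for all genes tested. With size factors 19 rose and 10 fell, and without the intermediate libraries 14 rose and 8 fell. Msmo1, a sterol demethylating oxidase, had 126, 139 and 129 CPM at P10 and 32.5, 29.6 and 31.8 CPM at P0.5, and Hmgcs1, which starts the pathway, rose to 219, 232 and 218 CPM at P10, against 113, 116 and 124 CPM at P0.5. Srebf1 and Srebf2, the factors that switch on sterol and lipid genes, fell (log2 difference -2.08 ± 0.08 and -1.63 ± 0.07), and the kinase Mvk fell (log2 difference -1.29 ± 0.07).

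Metallothioneins, small proteins that bind zinc and copper, were high at P0.5. Mt1 had 309, 307 and 306 CPM at P10 and 1360.5, 2030.1 and 1611 CPM at P0.5 (-2.42 ± 0.14), and Mt2 had 101, 94 and 97.4 CPM at P10 and 485, 683 and 562 CPM at P0.5 (-2.54 ± 0.12). Both were lower at E15.5, with 95.4 ± 17.1 and 20.6 ± 3.28 CPM. Mt3, the brain form, named here after its value was seen, had 1444 ± 117 CPM at P10 and 1396 ± 53.7 CPM at P0.5 and was not called (95% interval -0.16 to 0.25). The genes are neighbours on one chromosome and differ in promoter sequence. Their promoters are shown because 2 of the 3 genes fell and 1 was not called. They run from 250 bases before to 50 bases after the start site in RefSeq (GRCm38.p6, plus strand). Capitals mark TGCNCNC or its reverse complement, a looser pattern than the core of the metal response element, TGCRCNC with R for A or G. Marked stretches with another base at that place, such as TGCTCTC in Mt2, are therefore not cases of the core.
Mt1, chr8:94178839-94179138: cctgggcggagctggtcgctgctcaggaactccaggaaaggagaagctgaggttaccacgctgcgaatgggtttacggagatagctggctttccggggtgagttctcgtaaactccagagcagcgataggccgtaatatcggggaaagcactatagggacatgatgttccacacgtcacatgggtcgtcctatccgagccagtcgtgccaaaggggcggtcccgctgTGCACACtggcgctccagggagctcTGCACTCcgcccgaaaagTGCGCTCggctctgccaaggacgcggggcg
Mt2, chr8:94172368-94172667: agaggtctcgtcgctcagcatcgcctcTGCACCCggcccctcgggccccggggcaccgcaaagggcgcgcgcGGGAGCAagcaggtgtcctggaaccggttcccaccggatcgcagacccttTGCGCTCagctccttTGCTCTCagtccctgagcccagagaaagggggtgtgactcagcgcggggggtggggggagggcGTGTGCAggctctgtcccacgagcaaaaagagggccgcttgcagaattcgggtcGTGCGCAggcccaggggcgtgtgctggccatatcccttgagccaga
Mt3, chr8:94152357-94152656: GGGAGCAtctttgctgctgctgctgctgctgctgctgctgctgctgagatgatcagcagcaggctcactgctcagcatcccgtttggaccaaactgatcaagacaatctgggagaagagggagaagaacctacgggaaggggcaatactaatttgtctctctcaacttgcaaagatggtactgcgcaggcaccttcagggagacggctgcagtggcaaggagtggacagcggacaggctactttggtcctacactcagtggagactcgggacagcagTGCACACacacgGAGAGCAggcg
TGCNCNC was found 3 times for Mt1, 6 times for Mt2 and 3 times for Mt3, overlaps counted. It is a short pattern that 51% of 32851 promoters hold at least once, 7.1% at least 3 times and 0.225% at least 6 times. Mt3, which was not called, thus held as many matches to this loose pattern as Mt1, which fell. The tie holds for the loose pattern only. Every marked stretch of Mt1 is a case of the narrower core TGCRCNC, while in Mt3 only TGCACAC is. GGGAGCA and GAGAGCA of Mt3 read TGCTCCC and TGCTCTC on the other strand. The share of all promoters with the narrower core was not counted, and the part of these stretches in the levels was not tested.

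In all, 12 patterns were searched in promoters on both strands after the values had been seen. Besides TGCNCNC these were TCACNCCAC, TCACCCCAC (a case of it), CCATNTTAG, 2 forms of the CArG box of serum response factor, CCAATCAG, TTCAGCACC, CAGCACC (within it), TGACGTCA, ACAAAG and GAACAATG. Among genes that fell by at least 1 on the log2 scale TGCNCNC was in 61.7% of promoters, against 60.7% for genes tested. CCAATCAG was in 6.95% of promoters of genes that rose by as much, against 5.5% for genes tested, and ACAAAG in 16%, against 13.7%. TCACCCCAC, a classical sterol regulatory element, was in 0.551% of all promoters and, of 25 genes of the cholesterol list with a promoter entry, in that of Hmgcs1 alone (1 gene).

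Ribosomal protein genes changed by small amounts in both directions. Of 82 tested, 40 fell and 29 rose, or 34 rose and 33 fell with size factor scaling. Without the intermediate libraries 34 fell and 20 rose. Their share of CPM was 8.56% ± 0.147 at P10 and 8.9% ± 0.441 at P0.5. Rpl39 fell most (log2 difference -1.40 ± 0.07), and Rpl38 rose most, by 0.95 ± 0.10. Rpl22, whose protein carries the tag, had 38.5, 40.7 and 40.8 CPM at P10 and 48.3, 53.7 and 51.3 CPM at P0.5, called as lower with a log2 difference of -0.35 ± 0.07. Of the proteasome, 15 of 37 genes rose and 13 fell. Both the ribosomal and the proteasome counts stand against 35.2% that rose and 43.5% that fell among all genes tested. The regulatory subunits Psmc5 and Psmd2 rose by 1.44 ± 0.05 and 1.48 ± 0.07, and the core subunit Psmb7 and the activator subunit Psme1 fell (log2 difference -1.65 ± 0.06 and -2.18 ± 0.08).

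Splicing regulators of neuronal maturation changed. Mbnl1 and Mbnl2, muscleblind factors that switch fetal to adult isoforms, had 46.3, 48.3 and 45.8 CPM at P10 for Mbnl1, against 10.9, 9.88 and 11 CPM at P0.5, and 93.4, 78.3 and 85.2 CPM at P10 for Mbnl2, against 16.4, 14.5 and 15.8 CPM at P0.5. Ptbp1, which holds back neuronal exons, fell to 2.53, 2.74 and 2.99 CPM at P10, against 10.2, 9.31 and 10.01 CPM at P0.5, and Celf3 to 2.98, 1.89 and 2.04 CPM at P10, against 28.9, 22.4 and 24 CPM at P0.5. Dnmt3a, the methyltransferase that marks neuronal genomes after birth, rose to 63.7, 70.6 and 66.3 CPM at P10, against 26.8, 23.9 and 26.2 CPM at P0.5, with 5.34 ± 1.67 CPM in adults.

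Among the remaining growth genes, Igf2, an imprinted fetal growth factor, fell to 9.56, 19.9 and 13.8 CPM at P10, against 42.4, 60.1 and 50.1 CPM at P0.5, and Mycn to 0.750, 0.605 and 1.12 CPM at P10, against 4.66, 4.7 and 5.44 CPM at P0.5. Over the fetal growth list 14 of 20 fell and 5 rose. Of the cell cycle genes, 15 of 41 fell, 10 rose and 16 were not called. Ube2c, a ubiquitin-conjugating enzyme of mitotic exit, had 2.33, 4.99 and 3.32 CPM at P10 and 15.7, 16.9 and 15.7 CPM at P0.5. Dynlt1c and Dynlt1f, dynein light chain copies that are nearly identical and whose reads may have been shared between them, fell (log2 difference -5.26 and -4.02), which is uncertain for each alone.

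Astrocyte genes changed in both directions. 13 of 32 rose and 15 fell, shares near the 35.2% and 43.5% of all genes tested. Aqp4, the water channel of astrocyte endfeet, rose to 75.4, 78.2 and 72.6 CPM at P10, against 21.7, 18.8 and 23 CPM at P0.5, and Slc1a3, a glutamate transporter of young astrocytes, fell to 12.9, 13.3 and 12.8 CPM at P10, against 35.8, 40.8 and 38.7 CPM at P0.5. Fabp7, the lipid-binding protein of radial glia, fell to 174, 263 and 218 CPM at P10, against 616, 656 and 671 CPM at P0.5, and among its P10 libraries replicate 2 was the highest.

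B2m and H2-D1, of antigen presentation, were high at P0.5. The light chain gene of class I molecules, B2m, had 18.8, 18.2 and 22 CPM at P10 and 133, 146 and 158 CPM at P0.5 (-2.83 ± 0.08), and H2-D1, a heavy chain, 41, 33.4 and 37.1 CPM at P10 and 113, 107 and 109 CPM at P0.5. B2m had 32.1 ± 0.535 CPM at E15.5 and 33.8 ± 2.18 CPM in adults. The microglial complement gene C1qc fell to 18, 18.6 and 18.6 CPM at P10, against 35.6, 57.6 and 48.2 CPM at P0.5, and Aif1, also microglial, rose to 9.04, 10.4 and 9.43 CPM at P10, against 4.2, 5.34 and 5.77 CPM at P0.5.

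Genes of meninges and fibroblasts fell or were not called, with 1 exception. Of 26 tested, 13 fell, and Foxc1, a factor of meningeal cells, was the 1 that rose. Ptgds, a prostaglandin synthase of meninges and mature oligodendrocytes, had 67.1, 85.1 and 77.5 CPM at P10 and 217, 655 and 408 CPM at P0.5 (-2.33 ± 0.38), and Igfbp2, which binds insulin-like growth factors, 33.5, 40.1 and 35.2 CPM at P10 and 149, 239 and 178 CPM at P0.5. Ptgds thus fell while every gene of the myelin list rose. The 5 fibroblast markers used to check cell types summed to 47 to 201 CPM at P10 and 134 to 171 CPM at P0.5, and none of the 5 was called. Among erythroid genes 7 of 9 rose, or 5 without the intermediate libraries. Alas2, of haem synthesis in red cells, had 8.98, 9.55 and 8.85 CPM at P10 and 1.27, 1.88 and 1.25 CPM at P0.5. The globin genes Hba-a2 and Hbb-bt have nearly identical copies, so their rises of 0.77 ± 0.12 and 1.26 ± 0.13 are uncertain for each alone.

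Transcripts known from tissues outside the cord varied between libraries of one age. Avil (advillin), of sensory neurons, had 0.918, 35.8 and 17.3 CPM at P10 and 0.772, 1.57 and 1.19 CPM at P0.5. P10 replicate 2 was the highest and replicate 1 the lowest of its age, within the range of the P0.5 libraries. The call of Avil was lost without the intermediate libraries (adjusted p = 0.308), and also when any single library other than P10 replicate 1 was left out. Without P10 replicate 2 its log2 difference was 1.46. Without the intermediate libraries 1 of the 14 tested genes of peripheral glia and sensory neurons rose, in place of 6. Muscle actin Acta1 had 22.7, 121 and 75.5 CPM at P10 and 2494, 544 and 1566 CPM at P0.5. P0.5 replicate 1 was the highest here, and P10 replicate 1 the lowest. The muscle genes Actc1 and Tnnt3, with 0.275, 1.25 and 0.513 CPM at P10 for Actc1, against 102, 4.28 and 56.8 CPM at P0.5, and 3.35, 45.4 and 26.4 CPM at P10 for Tnnt3, against 537, 122 and 363 CPM at P0.5, lost their calls without the intermediate libraries (adjusted p = 0.0912 and 0.0624). The part of such tissue in the other differences was not tested.

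In the diaphragm of the same genotype, age differences could be set against those of the spinal cord. This asks which differences between P10 and P0.5 differ between the tissues. The diaphragm libraries hold RNA of synapse-enriched muscle, in which motor axons end. Of 13965 genes tested over 12 libraries, 6629 (47.5%) had a different change in the 2 tissues by limma's interaction term, higher in spinal cord for 2546 and lower for 4083. Under quantile normalization the split was 3304 and 3417. Without the intermediate library of each group 2132 were called. Diaphragm replicate 2 at P0.5 stood apart from replicates 1 and 3, as given below, and no fit left it out.

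Some genes moved in opposite directions, by at least 1 on the log2 scale in each tissue. They were chosen for that and for a called interaction, so their calls were fixed by the choice. Cox6a1 fell in spinal cord as given above and rose in diaphragm, with 1173, 1141 and 1185 CPM at P10 and 556, 391 and 553 CPM at P0.5 there (interaction -2.72, adjusted p = 8.25e-07). S100a11, a calcium-binding protein, had 15.9, 29 and 22.1 CPM at P10 and 344, 389 and 357 CPM at P0.5 in spinal cord, and 349, 316 and 323 CPM at P10 and 138, 152 and 139 CPM at P0.5 in diaphragm (interaction -5.20, adjusted p = 2.04e-07). The ribosomal protein gene Rpl39 fell in spinal cord and rose in diaphragm, by 1.76 there. Psmd12, a proteasome subunit, rose in spinal cord and fell in diaphragm, with 28.6, 40.2 and 34.1 CPM at P10 and 123.3, 97.4 and 131 CPM at P0.5 there.

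Other genes moved the same way in both tissues, and no difference between the tissues was called, which does not show that the changes were equal. They too were chosen for this. Mt2 fell in diaphragm to 40.6, 49.7 and 44.6 CPM at P10, against 163, 361 and 151 CPM at P0.5, a log2 difference of -2.19, where spinal cord gave -2.54 (interaction -0.36, adjusted p = 0.486). The translation factor gene Eif5a fell in both, with log2 differences of -1.04 in spinal cord and -1.31 in diaphragm. Eif4ebp1, a brake on translation, had -1.45 in spinal cord and -1.59 in diaphragm. Pvalb, also a protein of fast muscle, rose in both tissues, in diaphragm to 1219.8 ± 274 CPM at P10, against 289 ± 173 CPM at P0.5.

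**Figure D5:**
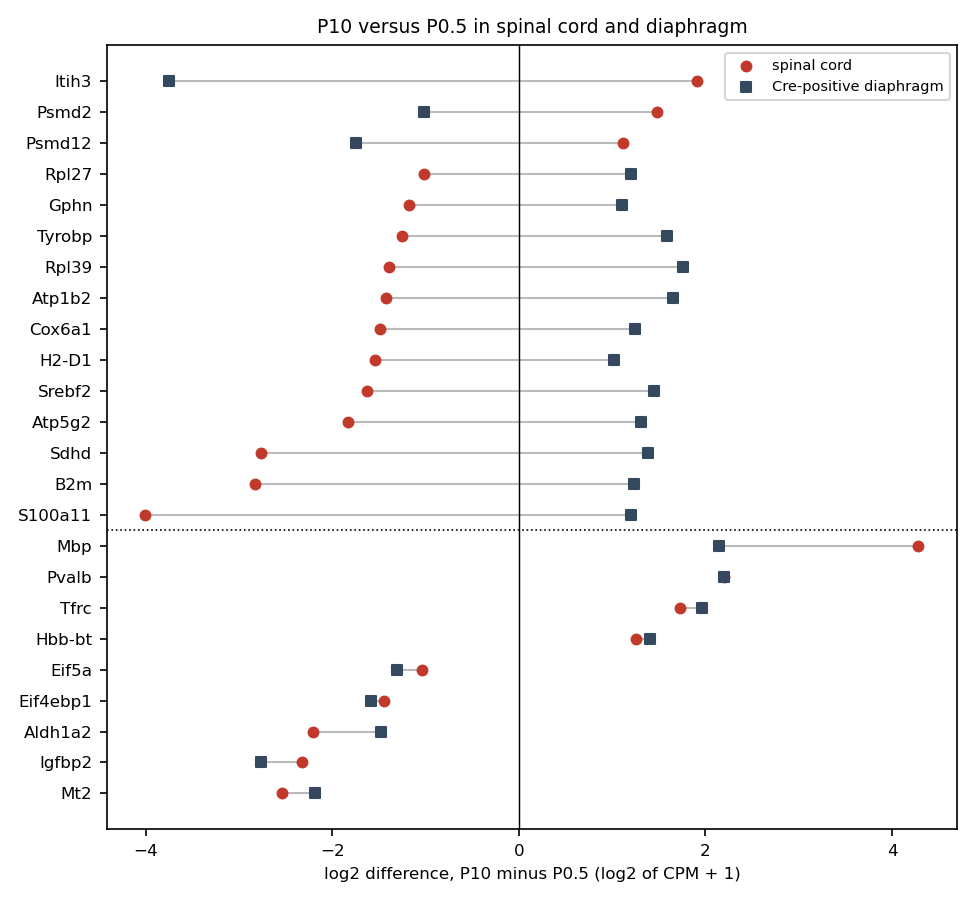
Log2 difference between P10 and P0.5 in spinal cord (circles) and Cre-positive diaphragm (squares) for genes chosen by a difference of at least 1 in size in both tissues. Above the dotted line the tissues move in opposite directions with the interaction called, and below it the same way with no interaction called, both by choice. Not every gene that met this rule is shown. Among the opposing genes shown, S100a11 has the lowest spinal value.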

How the data were processed

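RNA was purified by the HA tag from ChAT-Cre;Ribo-tag mice and extracted with the RNeasy micro kit, and libraries followed a BGI protocol, per the labels. The deposited table gives CPM for 18845 genes in 36 libraries, as the authors made it. Bowtie2 2.2.5, RSEM 1.2.12 and mm10 are named in the submitters' processing notes, with no further detail. The values were whole multiples of what 1 read is worth (within 0.1), which gave the read totals, and all values of the spinal cord libraries came out whole at that tolerance.

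Of the 12 spinal cord libraries at least 3 had to reach 1 CPM for a gene to be tested, which was done on log2(CPM + 1) with limma 3.58.1 (trend and robust) in R 4.3.3, with 1 variance per gene over the 4 ages and Benjamini-Hochberg adjustment. A second fit of 12 Cre-positive spinal cord and diaphragm libraries gave the interaction. CPM favours long genes if fragments were read along transcripts, and levels are therefore compared between samples, not genes. Tested on simulated data for the P10 versus P0.5 comparison over 13373 genes, limma recovered 82.1% of 1.5-fold, 97.0% of 2-fold and 98.5% of 4-fold changes, with 15 false calls. The simulated libraries were independent, with the same dispersion for all genes and 200 genes changed. In the data 78.7% of genes were called and replicate 3 lay near a mixture of replicates 1 and 2. The simulation therefore does not give the error rate of the calls reported here.

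Gene lists, the rule for named genes and the alternatives were chosen with earlier results of these data known. Named are the 15 largest called differences per direction with 10 CPM in the higher age and no overlap between ages, up to 5 called members per list and direction, fixed pairs, and Chat, Slc18a3, Slc5a7, Isl1, Mnx1 and Rpl22. From these the text takes genes of known role. The threshold of 1 on the log2 scale, the counts of genes apart from all other ages, the Hox grouping, the actin and myosin families and the genes named from them, Mt3, the promoter patterns and the examples from diaphragm were chosen after the data were seen. So was the requirement that an intermediate library have both weights above 0, which changed the library chosen at E15.5 only. Alternatives were a pseudocount of 0.1, no filter, quantile, RLE and TMM scaling, a replicate block, DESeq2 1.42.0 and edgeR 4.0.16 on recovered reads, a fit of P0.5 and P10 alone, and leaving out libraries. Promoters are from RefSeq. Some genes that met the rule are not reported here, though counts and sums include them.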

Additional observations from a re-analysis of the deposited data

Results flagged for a closer look

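Named genes, apart from those not reported here, whose difference between P10 and P0.5 ran in opposite directions in spinal cord and Cre-positive diaphragm, by at least 1 on the log2 scale in each, are listed by the difference of the 2 changes (spinal cord minus diaphragm), which limma's interaction term called for each of them with 3 libraries per group. The genes were chosen for opposing changes called in each tissue and for a called interaction, so these calls add no support of their own. In energy metabolism the differences were -4.15 for Sdhd, -3.15 for Atp5g2 and -2.72 for Cox6a1. Ribosomal protein genes gave -3.16 for Rpl39 and -2.22 for Rpl27. Genes of immune presentation and microglia gave -4.06 for B2m, -2.56 for H2-D1 and -2.85 for Tyrobp. The sterol factor gene Srebf2, the sodium pump subunit gene Atp1b2, the gephyrin gene Gphn and S100a11 gave -3.08 for Srebf2, -3.08 for Atp1b2, -2.28 for Gphn and -5.20 for S100a11. For these the change was lower in spinal cord than in diaphragm, whatever the levels. The proteasome genes Psmd12 and Psmd2 gave 2.87 for Psmd12 and 2.50 for Psmd2, and Itih3, a secreted matrix protein gene, 5.66, and for these 3 genes the change was higher in spinal cord. Itih3 had 2.02 ± 1.33 CPM at P10 and 67.8 ± 87.5 CPM at P0.5 in diaphragm (SD, n = 3 each), so its P0.5 libraries there differed widely. Groups of 3 libraries are too small for a search for single outlying samples, but replicate 2 of Cre-positive diaphragm at P0.5 stood apart. Its distance from the best mixture of replicates 1 and 3 was 37.4 times the counting error. For replicates 1 and 3 that distance was 2.71 and 3.12. In replicate 2, 30.9% of genes had no read, against 18.6% and 19.6% in replicates 1 and 3. No fit left replicate 2 out, so its part in the interaction was not tested.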

How the results depend on the processing

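With 13373 genes tested, 10526 were called, 1151 of them higher and 1768 lower by 1 or more on the log2 scale. Of 363 named genes, 325 kept their direction and their call under all alternatives that tested them. DESeq2 and edgeR called 1932 and 1926 genes higher by at least 2-fold on their own scales, which do not add 1 CPM and also differ in scaling. On log2(CPM + 1), RLE and TMM scaling alone gave 1372 and 1375. Without the intermediate libraries 8666 genes were called (9024 with E15.5 replicate 1 left out in place of replicate 3, and 8191 in a fit of P0.5 and P10 alone), and the interaction with diaphragm was called for 2132 genes, with the change higher in spinal cord for 821 and lower for 1311, against 6629. Fewer libraries enter that fit. Leaving out 1 spinal cord library gave 9934 to 10217 calls, 4397 to 4605 higher and 5416 to 5740 lower, with 1126 to 1177 and 1702 to 1800 past 1 on the log2 scale. For the interaction the ranges were 5519 to 5818, 2068 to 2194 and 3342 to 3684. Tubb4a, not called, had -0.05 and changed sign to 0.04771 with quantile normalization, 0.0534 with RLE, 0.05423 with TMM, 0.05315 with DESeq2 and 0.05307 with edgeR, and was not called under these either. Vamp1 was called as higher in 8 alternatives, among them every other scaling. DESeq2 and edgeR called 10502 and 10568 genes in all. Same-numbered libraries of the ages deviated from their group means with correlations of -0.009, -0.034 and 0.054. Different-numbered libraries gave -0.0965 to 0.074. With replicate 3 near a mixture of replicates 1 and 2, these values cannot show whether the numbers pair the libraries. With replicate number as a block, 10623 genes were called, and 6500 for the interaction. Rarres2, Pmp2, Avil, Cox6a2 and Klf2 were among the genes that lost their calls when single libraries were left out. Depth was not varied, so its part in the precision was not tested.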
